A study of Mus musculus with 28 samples.

Results

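In the developing mouse peripheral nerve, 42 genes had levels before birth, at embryonic day (E) 17, and in the young adult, at postnatal day (P) 60, that were both at least 2 times the level at P14. The 42 genes were picked from bulk RNA sequencing counts by their means over the 4 libraries of each of these 3 stages, in CPM (counts scaled to a common library total) with TMM, a correction of library sizes for differences in composition. The E17 and P60 means both had to be 5 CPM or more, and each had to be at least 2 times the P14 mean. They make up 0.237% of the 17700 genes that passed a filter on low counts, and 10188 of those genes had 5 CPM or more at both E17 and P60. The opposite shape, a P14 mean of 5 CPM or more and at least 2 times both other means, was found for 113 genes. The floor there applied to P14 only, so this number and 42 do not rest on the same filter. Because the values at E17, P14 and P60 chose the genes, these values are given as a description without a test, and tests are given for contrasts among P1, P5 and P24, whose libraries the choice did not use.

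Schwann cells ensheath the axons of peripheral nerves. Before birth, immature Schwann cells sort large axons into a one-to-one relation, and after birth they wrap these axons in myelin, the lipid-rich sheath that speeds conduction, while small axons stay in bundles held by non-myelinating (Remak) cells. Myelin genes are most active in the weeks after birth, and by the young adult age the sheath is largely built and is then maintained. Nerves also hold endoneurial fibroblast-like cells, vessels, macrophages and mast cells, and axons carry some messenger RNA of the neurons from which they extend.

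The timeline comprised 4 libraries at each of 7 stages, the embryonic E13 and E17 and the postnatal P1, P5, P14, P24 and P60, for a total of 28, from untreated C57BL/6J mice of both sexes. E13 and E17 are labels in whole days, and the study's text places these samples later within those days. The labels give sciatic nerve throughout, but per the study's methods each E13 library pooled various nerves of 2 embryos, each E17 library pooled the sciatic nerves of 2 embryos, and each postnatal library came from the sciatic nerves of 1 mouse. At E17 and later the outer sheaths (epineurium and perineurium) were stripped as far as this could be done, to enrich for the endoneurium inside them, so that stage and dissection cannot be told apart at E13. Each library is treated here as an independent sample, as the study describes. The labels do not say which libraries are male or female.

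The libraries held 13899895 to 37662780 counts. Myelinating Schwann cell markers (13 genes) summed to 4874 to 5349 CPM at E17, 119400 to 143300 at P14 and 76460 to 96790 at P60. Neuron markers (20 genes) summed to 2560 to 4590 CPM at E13, far above the 69.5 to 251 CPM at E17 to P60. The distance of a library from the others of its stage (median absolute difference of log2 CPM over the tested genes) was 0.112 to 0.31 from E17 to P60, with P1 replicate 1 highest, and 0.204 to 0.683 at E13, where replicates 1 and 4 stood apart. In bulk tissue, fewer cells of a type and less RNA per cell cannot be told apart, and this holds for every level below.

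All 42 genes are protein-coding. They lie on 17 chromosomes, with 3 on the X chromosome and at most 4 on any one. Among the 7 stages the lowest mean was at P14 for 24 genes, at P5 for 11, at E13 for 5 and at P1 for 2. The highest mean was at E13 for 21 genes, at E17 for 14 and at P60 for 5, with Etv4 highest at P1 and Gstm6 at P24. The E17 mean was 2.03 to 19.7 times the P14 mean (median 3.39), and the P60 mean was 2.01 to 27.8 times it (median 2.47). The P60 mean exceeded the E17 mean for 12 of the 42 genes, among them Col24a1, P3h2, Fkbp5, Net1 and Scn8a.

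The decline from E17 took 3 forms. For 24 genes the E17 mean was already at least 2 times the P1 mean, among them Cpa3, Cma1 and Nefl, whose P5 mean was also at least 2 times the P14 mean. For 7 others (Fibin, Nefh, Etv4, Cacna1g, Ptprd, Crispld1 and Cyp1b1) only the P5 mean was at least 2 times the P14 mean, and for the remaining 11 genes neither held. The return also varied. The P24 mean was at least 2 times the P14 mean for 11 genes, 4 of which (Cpa3, Fam83d, Myzap and Col24a1) doubled again from P24 to P60, while 8 others doubled only from P24 to P60 and 23 did neither. All 4 E17 libraries lay above all 4 P14 libraries for 39 genes (all tested genes 30.8%), all 4 P60 libraries did so for 35 (all genes 18.6%), and both held for 33 (all genes 3.12%), in comparisons that the choice itself used. All 4 P24 libraries lay above the P14 libraries, which the choice also used, for 20 genes (all genes 7.24%).

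**Figure D1:**
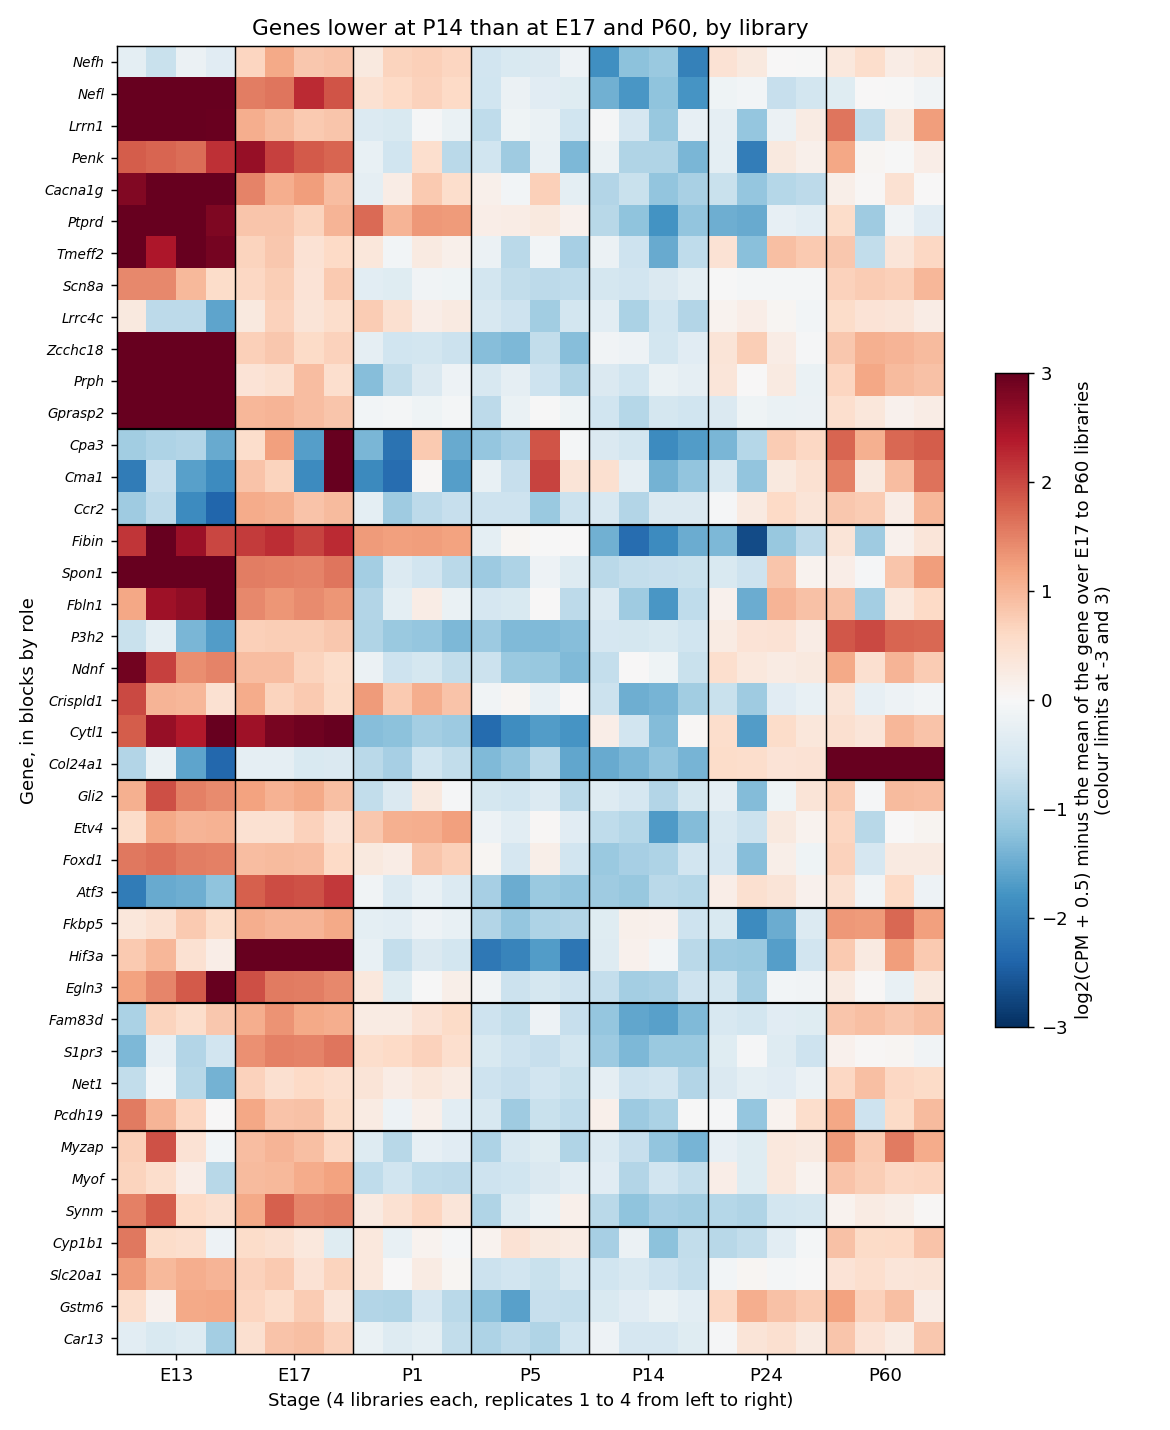
Levels of 41 of the 42 genes in each of the 28 libraries, in blocks by the role of the gene, as log2(CPM + 0.5) minus the mean of the gene over the 24 libraries of E17 to P60 (red above, blue below). The P5 and P14 columns are mostly blue, and the E13 columns are far above the colour limit for many genes of the neuronal block. Replicate 2 of P24 and of P60 is bluer than the other libraries of its stage in many rows.

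Members nearest the limit were Car13, Gprasp2 and Gstm6, with smaller folds of 2.01, 2.02 and 2.03. Just outside were Ebf2 at 1.99 (52.9 CPM at E17, 26 at P14 and 51.6 at P60), Emilin2 at 1.99 (32, 6.63 and 13.2 CPM) and Traip at 1.98 (26.3, 5.02 and 9.95 CPM). The P14 mean was under 5 CPM for 23 of the 42 genes, so that many of the folds rest on low levels.

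Across the stages that the choice did not use, the genes as a group were lowest at P5. Of the means at P1, P5 and P24, the P5 mean was the lowest for 30 of the 42 genes (71.4%), against 16.7% of all 17700 tested genes. P1 follows E17, P5 precedes P14 and P24 lies between P14 and P60, so a gradual course of the chosen shape would favour this order. The shares of all genes, which were not chosen for a shape, do not allow for this. From P1 to P5, 8 genes (19%) were called lower and none higher. Over all tested genes 1.79% were called lower and 4.05% higher (edgeR quasi-likelihood test, adjusted p under 0.05 and a fold of at least 2). The median log2 fold change was -0.68 for the 42 genes and 0 for all genes, and it was negative for 36 of them. The 4 P5 libraries lay entirely below the 4 P1 libraries for 21 genes (50%), against 14.6% of all genes, and entirely above them for none, against 15.8%. By edgeR at an unadjusted p under 0.05, with no fold minimum, 23 of the 42 were lower (all genes 12.9%) and 1, Cma1, was higher (all genes 16.2%). DESeq2 and limma-voom called none of them higher. In the same contrast 8 of the 13 myelinating Schwann cell markers rose and none fell (median log2 fold change 1.1), and their sum went from 20390 to 32480 CPM at P1 to 73290 to 78230 at P5. The part of these cells in the fall of the 8 genes was not tested.

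From P5 to P24, 9 genes (21.4%) rose, against 11.7% of all tested genes, and 3 (7.14%) fell, against 7.08%. The genes that rose were Atf3, Car13, Ccr2, Col24a1, Cytl1, Gstm6, Ndnf, P3h2 and Zcchc18, and those that fell were Cacna1g, Fibin and Ptprd. The median log2 fold change was 0.58, with 33 of 42 positive, and was 0 for all genes. The P24 libraries lay entirely above the P5 libraries for 17 genes (40.5%, all genes 22.9%) and entirely below for 4 (9.52%, all genes 24.7%). This contrast and the preceding one share the P5 libraries. No gene was both lower at P5 than at P1 and higher at P24 than at P5 by the main edgeR test. Under several alternatives Hif3a was both, among them DESeq2 and a fit with the replicate number as a block, but not by limma-voom. By the main test 19 of the 42 genes (45.2%) were called in at least 1 of the 3 contrasts, against 32% of all genes. Markers of cells of the nerve sheaths and of fat moved over the same interval. From P5 to P24, 12 of 13 epineurial, 11 of 12 perineurial and 11 of 11 adipocyte markers rose, none of them among the 42, with median log2 fold changes of 2.34, 3.13 and 3.91. Their sums were 123 to 173 CPM at P5 and 881 to 1090 at P24 for the epineurial list, 441 to 470 and 881 to 1380 for the perineurial list, and 38.4 to 105 and 46.5 to 697 for the adipocyte list. Their part in the rise of the 9 genes was not tested.

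From P1 to P24 the group had no common direction. The median log2 fold change was -0.04, with 5 genes (11.9%) higher, against 17.9% of all genes, and 6 (14.3%) lower, against 11.8%. Ccr2, Col24a1, Cytl1, Gstm6 and P3h2 were higher at P24 than at P1, and Cacna1g, Crispld1, Etv4, Fibin, Ptprd and Synm were lower. The P24 libraries lay entirely above the P1 libraries for 10 genes (23.8%, all genes 27.7%) and entirely below for 13 (31%, all genes 27.1%).

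**Figure D2:**
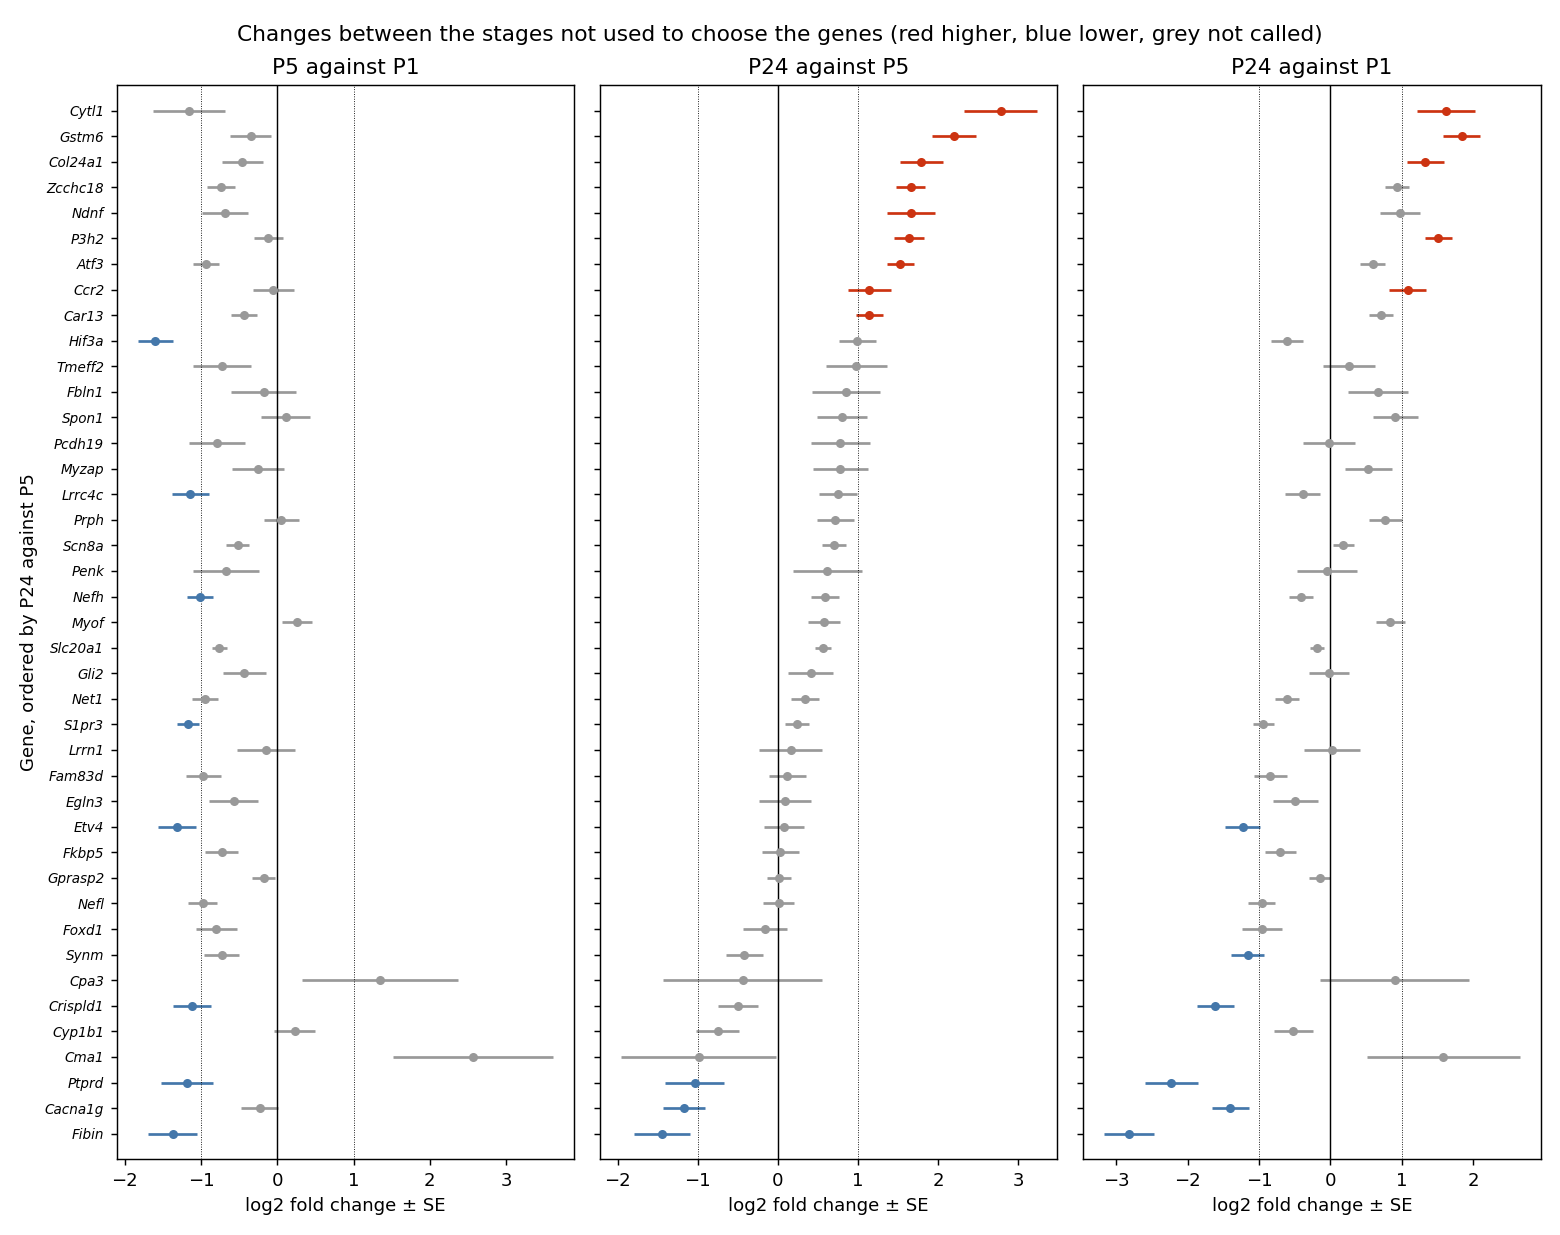
Fitted log2 fold change ± SE of 41 of the 42 genes for P5 against P1, P24 against P5 and P24 against P1 (4 libraries per stage; red, called higher; blue, called lower; grey, not called; dotted lines, a fold of 2). In the left panel 35 of 41 points lie below 0, in the middle panel 32 lie above 0, and in the right panel the points fall on both sides. The widest error bars belong to Cpa3 and Cma1.

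In a grouping made after the members were known, 13 of the 42 genes were placed under neurons and axons, whether or not they are specific to neurons. Of these, 3 (Nefh, Nefl and Prph) are among the 20 neuron markers. Nefh and Nefl encode the heavy and light neurofilament subunits, which set the calibre of large axons, and Prph encodes peripherin, an intermediate filament of peripheral neurons. Nefh (ENSMUSG00000020396, chromosome 11, 4938754 to 4948064, minus strand, in the mouse build GRCm38) stood at 33.6, 47.3, 37.8 and 38.7 CPM at E17, at 26.2, 34.1, 35.5 and 33.8 at P1, at 14.1, 15.5, 15.7 and 19.2 at P5, at 5.62, 8.76, 9.52 and 4.82 at P14, at 29.01, 26.1, 21.5 and 20.99 at P24 and at 26.8, 30.9, 24.8 and 26.6 at P60. Every P14 library was lower than every library of the other 5 stages, and the E13 libraries (13.3 to 19.0 CPM) lay near those of P5. Nefh fell from P1 to P5 (log2 fold change -1.01 ± 0.17 (SE), adjusted p = 0.00011), a call that sits at the fold minimum and was lost, at values of -0.95 to -0.99, when any 1 of P1 replicates 2, 3 and 4 or P5 replicates 1, 2 and 3 was left out. With the replicate number as a block the call was lost as well, at a value that rounds to -1. From P5 to P24 its log2 fold change was 0.59 ± 0.17 (SE), adjusted p = 0.0068, short of a fold of 2.

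Nefl (ENSMUSG00000022055, chromosome 14, 68083863 to 68089095, plus strand) stood at 43.7, 46.05, 71.2 and 55.9 CPM at E17, at 20.4, 22.8, 24.1 and 22.6 at P1, at 9.59, 13.2, 11.6 and 11.3 at P5, at 5.16, 4.07, 6.08 and 3.99 at P14, at 13.4, 14.02, 8.99 and 9.93 at P24 and at 11.5, 15.02, 14.7 and 13.7 at P60. The P14 libraries were again the lowest of all, but P24 and P60 stayed below the P1 libraries, whereas for Nefh they came near them. Its P5 against P1 value was -0.98 ± 0.19 (SE), adjusted p = 0.00042, just short of a fold of 2, and no difference between P24 and P5 was detected (log2 fold change 0.01 ± 0.19 (SE), adjusted p = 0.97). Per length of exon the order of the pair reversed, from 16 RPKM for Nefl and 9.85 for Nefh at E17 to 4.06 and 6.82 at P60. Nefl overlaps Nefm, the middle neurofilament gene, by 1108 bases on the opposite strand, and whether the counting used the strand is not stated, so that reads of the overlap may be shared. Nefm itself was not a member. It had 18.9 ± 3.63 CPM at E17, 5.8 ± 1.59 at P14 and 10.9 ± 2.22 at P60 (SD, n = 4).

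Prph (ENSMUSG00000023484, chromosome 15, 99055174 to 99058978, plus strand) stood at 8.58, 9.03, 12.5 and 9.299 CPM at E17, at 2.33, 3.62, 4.56 and 5.71 at P1, at 4.42, 5.21, 3.98 and 3.16 at P5, at 4.601, 4.01, 5.47 and 5.24 at P14, at 8.28, 6.49, 7.75 and 5.46 at P24 and at 10.3, 14.9, 12.8 and 12.1 at P60. P1, P5 and P14 overlapped, and the P60 libraries were above all of them. Its log2 fold change was 0.05 ± 0.23 (SE), adjusted p = 0.93 from P1 to P5 and 0.72 ± 0.23 (SE), adjusted p = 0.014 from P5 to P24, neither of them called. The 250 bases upstream of its RefSeq start are shown because they hold a TATAAA box at -31 to -26 from the start, followed by a GC box (read as CCGCCC on this strand) at -24 to -19. Both are in capitals, and the build is GRCm38.p6.
Prph, chr15:99054924-99055173, plus strand: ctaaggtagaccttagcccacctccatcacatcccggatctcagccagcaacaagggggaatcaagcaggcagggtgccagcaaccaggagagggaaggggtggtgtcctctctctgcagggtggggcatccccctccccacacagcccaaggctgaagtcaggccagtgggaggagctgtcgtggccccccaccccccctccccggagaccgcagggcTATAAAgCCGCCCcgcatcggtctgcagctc

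Ion channel genes followed 2 courses. Scn8a, the Nav1.6 sodium channel of mature nodes of Ranvier, stood at 20.2, 21.97, 17.5 and 22.8 CPM at E17, at 10.3, 10.04, 12.03 and 11.8 at P1, at 8.63, 7.505, 7.32 and 7.42 at P5, at 8.85, 8.48, 9.52 and 10.5 at P14, at 12.9, 12.4, 12.4 and 12.4 at P24 and at 21.2, 22.5, 21.4 and 26.4 at P60. Its P5 and P14 libraries overlapped, P24 lay above both, and P60 overlapped E17. The P24 against P5 value was 0.70 ± 0.15 (SE), adjusted p = 0.00048, short of a fold of 2. Cacna1g, a T-type calcium channel, behaved otherwise, at 14.02, 10.6, 11.9 and 9.36 CPM at E17, at 3.83, 5.58, 8.46 and 6.98 at P1, at 5.25, 4.41, 7.96 and 3.71 at P5, at 2.301, 2.77, 1.797 and 2.13 at P14, at 2.76, 1.83, 2.37 and 2.52 at P24 and at 5.34, 4.86, 6.59 and 4.71 at P60. It fell from P5 to P24 (log2 fold change -1.17 ± 0.26 (SE), adjusted p = 0.00075) and was lower at P24 than at P1 (-1.40 ± 0.26 (SE), adjusted p = 5.7e-05), and the P14 and P24 libraries overlapped. The first of these calls was lost without P5 replicate 3 (log2 fold change -0.92, adjusted p = 0.0065).

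Surface proteins were also placed in the neuronal group. Ptprd is a receptor tyrosine phosphatase that organises synapses, and Lrrc4c (netrin-G ligand 1), Lrrn1 and Tmeff2 are membrane proteins. Ptprd stood at 10.9, 10.9, 9.699 and 12.4 CPM at E17, at 20.2, 12.4, 15.3 and 15.1 at P1, at 6.88, 6.99, 7.36 and 6.54 at P5, at 3.12, 2.26, 1.35 and 2.32 at P14, at 1.81, 1.73, 4.89 and 4.67 at P24 and at 8.84, 2.54, 5.47 and 4.58 at P60. It fell from P1 to P5 (-1.18 ± 0.34 (SE), adjusted p = 0.016) and again from P5 to P24 (-1.04 ± 0.37 (SE), adjusted p = 0.023). The first call was lost without P1 replicate 1 (adjusted p = 0.061), and the second without P24 replicate 1 or 2 (adjusted p = 0.08 and 0.088) and by limma-voom with quality weights (log2 fold change -0.89, short of a fold of 2). Lrrc4c fell from P1 to P5 (-1.14 ± 0.24 (SE), adjusted p = 0.0013), from 29.6, 24.2, 20.02 and 20.9 to 12.3, 11.1, 8.13 and 11.5 CPM, and reached 25.6, 23.2, 22.3 and 20.2 CPM at P60 after 13.7, 8.703, 11.2 and 9.08 at P14. Lrrn1 and Tmeff2 were called in no contrast by the main edgeR test, while DESeq2 and limma-voom called Tmeff2 higher at P24 than at P5. The P60 means of Lrrn1 and Tmeff2, 8.83 ± 5.69 and 6.97 ± 2.89 CPM (SD, n = 4), included a library at 2.61 and 2.98 CPM, replicate 2 in both cases, that lay within the P14 range.

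The neuronal group also held Zcchc18, Gprasp2 and Penk. Zcchc18, a zinc finger gene on the X chromosome, had 2.33, 2.21, 3.64 and 2.35 CPM at P5 and 8.51, 10.98, 7.61 and 6.21 at P24, and rose between them (1.66 ± 0.18 (SE), adjusted p = 1.8e-08). Its lowest stage was P5, not P14, where it had 5.98, 5.71, 4.21 and 4.94 CPM. Gprasp2, which encodes a G-protein-coupled receptor sorting protein and shares 376 same-strand bases with Bhlhb9, and Penk, the precursor of the enkephalin peptides, were called in no contrast. Their P14 means were 5.01 ± 0.527 and 2.37 ± 1.01 CPM. The E13 mean was at least 2 times the P14 mean for 29 of the 42 genes, and above the E17 mean in 24 of the 42. By role group these 24 were 10 of the 13 genes placed as neuronal and 5 of the 8 placed under matrix and secreted proteins. The rest were 3 of the 4 transcription factors, 3 of the 4 enzymes and transporters and 3 of the others. The E13 sum of the neuron markers is given above.

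The summed level of the 20 neuron markers was 205 to 251 CPM at E17, 88.8 to 128 at P1, 73.4 to 89.7 at P5, 69.5 to 89 at P14, 120 to 140 at P24 and 170 to 210 at P60. From P1 to P5, 3 of the 20 fell (Scn9a, Syt1 and Nefh) and none rose. From P5 to P24, 4 rose (Snap25, Stmn2, Calca and Syt1) and Scn9a fell. The list of 29 synaptic and vesicle genes contained none of the 42 genes. In that list 5 genes rose and 8 fell from P5 to P24.

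**Figure D3:**
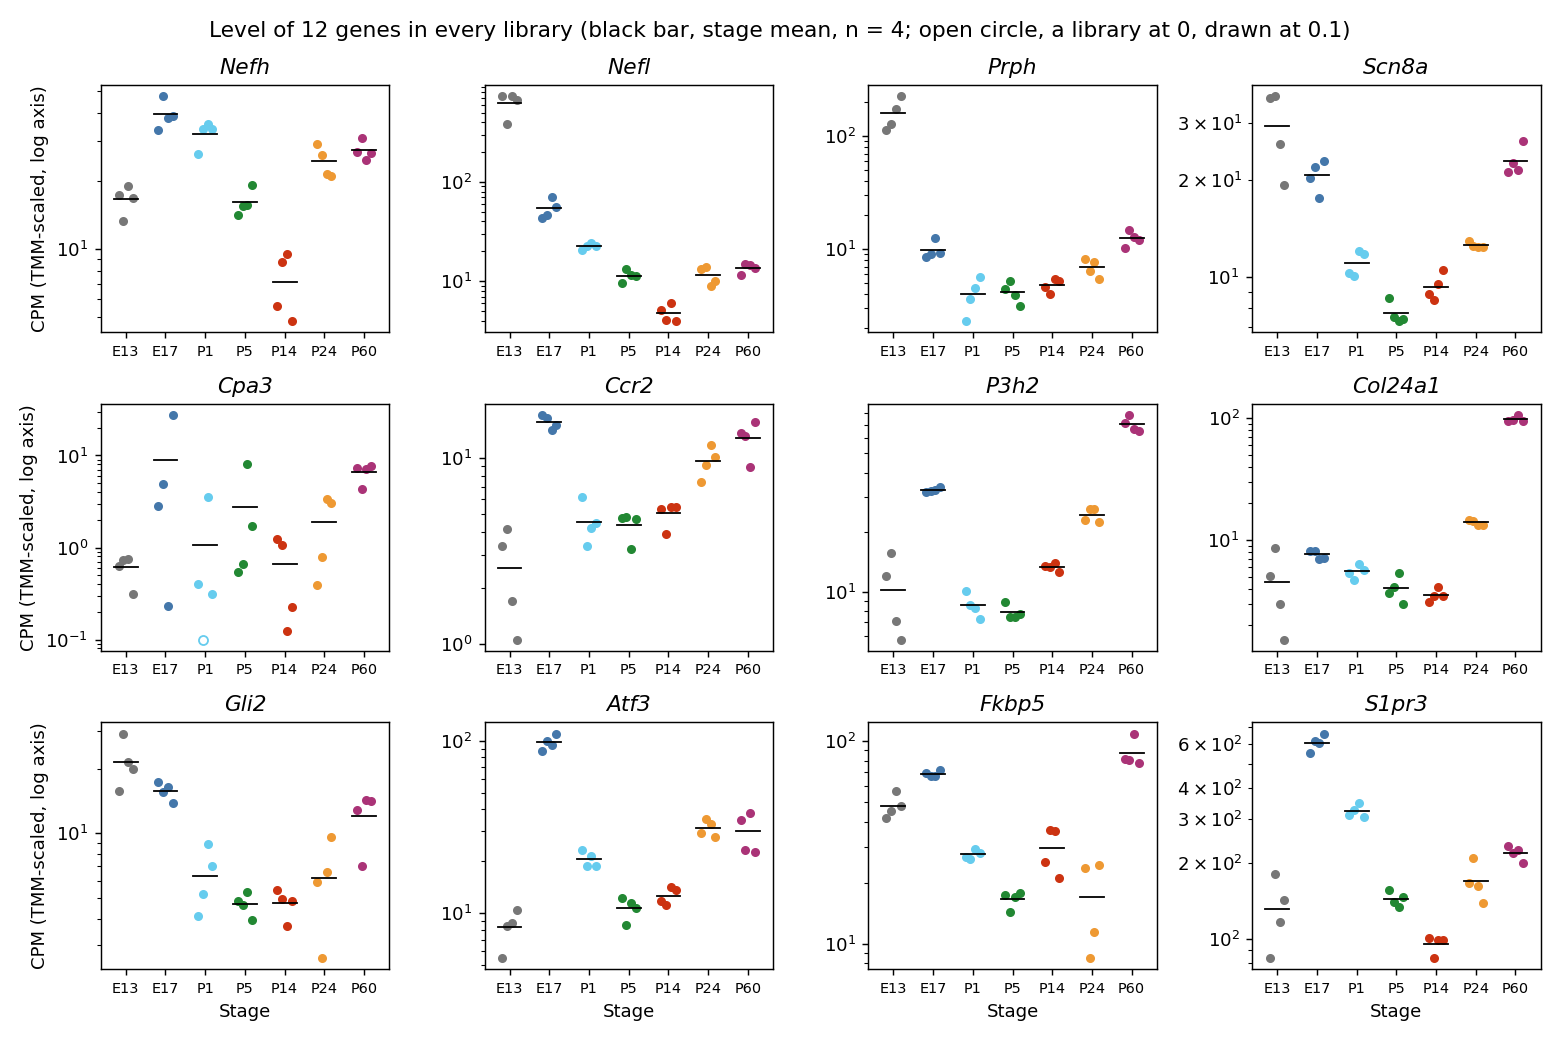
TMM-scaled CPM (log axes) of 12 of the genes in every library, by stage. Each point is a library and each black bar the mean of 4; an open circle at 0.1 marks a library with no count. Nefh and Nefl are lowest at P14, Scn8a, P3h2, Gli2 and Fkbp5 have their lowest mean at P5, Col24a1 reaches its highest level at P60, and Cpa3 spreads widely within stages.

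The immune genes among the 42 are known from mast cells and monocytes. Cpa3 (carboxypeptidase A3) and Cma1 (chymase) encode proteases of mast cell granules, and Ccr2 the receptor that brings monocytes into tissue. Cpa3 (ENSMUSG00000001865, chromosome 3, 20215620 to 20242181, minus strand) stood at 2.86, 4.91, 0.233 and 27.6 CPM at E17, at 0.401, 0, 3.5 and 0.3103 at P1, at 0.542, 0.659, 8.001 and 1.73 at P5, at 1.23, 1.07, 0.122 and 0.228 at P14, at 0.394, 0.785, 3.41 and 3.05 at P24 and at 7.24, 4.35, 7.09 and 7.597 at P60. Cma1 (ENSMUSG00000022225, chromosome 14, 55941451 to 55944675, minus strand) stood at 3.903, 3.38, 0.155 and 28.8 CPM at E17, at 0.146, 0, 2.005 and 0.279 at P1, at 1.58, 1.003, 9.499 and 2.68 at P5, at 2.91, 1.53, 0.408 and 0.5697 at P14, at 1.26, 0.575, 2.47 and 2.86 at P24 and at 6.505, 2.47, 4.17 and 7.09 at P60. Both were highest in the same library at 5 stages, replicate 4 at E17 and P60, replicate 3 at P1 and P5 and replicate 1 at P14. P1 replicate 2 had no count of either gene, which allows up to 0.125 CPM (3 counts, for counting error only). Without E17 replicate 4 the E17 means were 2.67 ± 2.35 CPM for Cpa3 and 2.48 ± 2.03 for Cma1 (SD, n = 3), under the 5 CPM that the choice asked for, so that neither gene was chosen without this library. Cma1 was not chosen without P60 replicate 1 or without P60 replicate 4 either. Neither was called in a contrast with all libraries, and their standard errors of 0.97 to 1.07 on the log2 scale were the widest of the group. Without P1 replicate 3 both were called higher at P24 than at P1, and Cma1 was also called higher at P5 than at P1. The P60 libraries of Cpa3 were above all P14 and P24 libraries.

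The upstream bases of this pair are shown because both genes followed the same libraries. Cpa3 has TATAAA at -31 to -26, the same offset as in Prph, and the reverse-strand form TTTATA at -242 to -237. Cma1 has none of the 8 motifs searched. Motifs are in capitals, and sequences are from RefSeq in build GRCm38.p6.
Cpa3, chr3:20242182-20242431, minus strand: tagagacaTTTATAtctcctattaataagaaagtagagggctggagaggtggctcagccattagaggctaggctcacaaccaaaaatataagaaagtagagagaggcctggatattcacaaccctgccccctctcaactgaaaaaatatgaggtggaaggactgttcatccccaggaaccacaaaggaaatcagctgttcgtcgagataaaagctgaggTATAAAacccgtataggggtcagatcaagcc
Cma1, chr14:55944676-55944925, minus strand: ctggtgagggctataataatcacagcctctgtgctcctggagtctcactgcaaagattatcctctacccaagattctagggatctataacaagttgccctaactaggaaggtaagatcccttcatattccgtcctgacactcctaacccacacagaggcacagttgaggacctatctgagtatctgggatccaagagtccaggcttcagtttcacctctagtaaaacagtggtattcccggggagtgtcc

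RefSeq windows, from 250 bases before to 50 after the start, were matched by symbol for 30 of the 42 genes and for 12514 tested genes, and were searched on both strands. TATAAA was in the windows of 4 genes (13.3%, all genes 9.37%), Cpa3, Prph, Fam83d and Slc20a1. The E-box CACGTG was in 6 (20%, all genes 11%), GGGCGG in 19 (63.3%, all genes 65.2%), CCAAT in 14 (46.7%, all genes 42.4%) and ACAAT in 3 (10%, all genes 24.2%). TGACGTCA was in Col24a1 only and TGACTCA in Lrrc4c only (3.33% each, all genes 3.33% and 4.56%), and the CArG box in none (all genes 1.58%). With so few windows these shares were not set against chance. The median GC content of the windows was 58.7%, against 60.3% for all genes.

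Ccr2 (ENSMUSG00000049103, chromosome 9, 124101950 to 124113557, plus strand) varied less between libraries and stood at 17.04, 16.5, 14.1 and 15.02 CPM at E17, at 6.12, 3.37, 4.19 and 4.47 at P1, at 4.75, 4.78, 3.25 and 4.7 at P5, at 5.32, 3.9, 5.43 and 5.43 at P14, at 7.41, 9.21, 11.7 and 10.1 at P24 and at 13.6, 13.1, 8.95 and 15.6 at P60. Every E17, P24 and P60 library was above every P5 and P14 library. It rose from P5 to P24 (1.14 ± 0.27 (SE), adjusted p = 0.0011) and was higher at P24 than at P1 (1.08 ± 0.26 (SE), adjusted p = 0.0011), the latter short of a fold of 2 without P1 replicate 2 or P24 replicate 3 (log2 fold changes of 0.96 and 0.97) and with scaling by library size only (0.77). The 18 tested immune markers summed to 158 to 193 CPM at E17, 269 to 350 at P14 and 497 to 671 at P60, so the list as a whole was not lower at P14 than at E17. In this list 8 genes rose from P5 to P24 and none fell. Ms4a2, a receptor subunit of mast cells on the list, did not pass the filter on low counts. Other mast cell genes were not among the 42 (mean ± SD, n = 4). Mcpt4, a chymase of connective tissue mast cells, had 1.32 ± 2.11 CPM at E17, 1.01 ± 0.864 at P14 and 9.67 ± 2.7 at P60. Tpsb2, a mast cell tryptase, had 4.48 ± 6.7 CPM at E17, 0.788 ± 0.835 at P14 and 6.12 ± 0.81 at P60, so that its mean was lowest at P14 of these stages but under 5 CPM at E17. Hdc, which makes histamine, had 5.51 ± 7.59 CPM at E17, 0.376 ± 0.276 at P14 and 0.921 ± 0.0818 at P60, and Kit, the receptor for stem cell factor, which other cells also carry, had 36.3 ± 0.809 CPM at E17, 10.6 ± 1.76 at P14 and 11.4 ± 2.86 at P60.

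The group of matrix and secreted proteins, in which P3h2 was placed as an enzyme that modifies collagen, held 8 of the genes. It contained 4 of the 9 that rose from P5 to P24. Col24a1 (ENSMUSG00000028197, chromosome 3, 145292472 to 145552011, plus strand) encodes a fibrillar collagen chain and P3h2 (ENSMUSG00000038168, chromosome 16, 25959288 to 26105784, minus strand) a prolyl 3-hydroxylase that modifies collagen. Col24a1 stood at 8.14, 8.13, 7.06 and 7.16 CPM at E17, at 5.39, 4.66, 6.38 and 5.68 at P1, at 3.67, 4.096, 5.39 and 3.01 at P5, at 3.12, 3.504, 4.08 and 3.46 at P14, at 14.7, 14.4, 13.4 and 13.4 at P24 and at 94.8, 97.5, 107 and 95.1 at P60. The P60 libraries were far above all others, with a mean 27.8 times that of P14 and 12.9 times that of E17. P3h2 stood at 31.8, 32.4, 32.5 and 33.99 CPM at E17, at 10.1, 8.62, 8.31 and 7.29 at P1, at 8.88, 7.45, 7.49 and 7.71 at P5, at 13.6, 13.3, 14.1 and 12.7 at P14, at 23.2, 26.1, 26.2 and 22.5 at P24 and at 71.5, 78.4, 66.5 and 64.6 at P60, and had its low at P1 and P5, not at P14. Both rose from P5 to P24, by 1.79 ± 0.27 (SE), adjusted p = 5.2e-06 for Col24a1 and 1.64 ± 0.19 (SE), adjusted p = 7.2e-08 for P3h2 on the log2 scale.

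Beside these 2 genes, the 10 endoneurial cell markers summed to 227 to 275 CPM at E17, 1070 to 1360 at P14 and 8340 to 10300 at P60, and the 12 perineurial markers to 491 to 527, 791 to 941 and 1490 to 2060 CPM. Whether the levels of Col24a1 and P3h2 followed the share of these cells was not tested. None of the 25 collagen chains of the list, which does not contain Col24a1, was among the 42 genes. Their sum was 32800 to 36400 CPM at E17, 27500 to 35300 at P14 and 9590 to 11800 at P60.

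Cytl1, which encodes a cytokine-like secreted protein, and Ndnf, a secreted neurotrophic factor, had their lows at P5. Cytl1 was at 22.2, 27.99, 28.98 and 33.7 CPM at E17, at 0.292, 0.573, 0.727 and 0.661 at P5, at 3.99, 2.15, 1.103 and 3.49 at P14 and at 4.97, 4.57, 7.28 and 6.66 at P60. It rose from P5 to P24 (2.78 ± 0.45 (SE), adjusted p = 1.3e-05), although P24 replicate 2, at 0.732 CPM, was close to the highest P5 library. Ndnf rose over the same interval (1.66 ± 0.30 (SE), adjusted p = 4.8e-05), from 1.96, 1.26, 1.24 and 1.03 to 4.97, 4.24, 4.05 and 4.18 CPM, with no overlap.

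Fibin, first described as a secreted signal of fin and limb buds, and Crispld1, a secreted cysteine-rich protein, had a late decline. Fibin stood at 26.3, 28.4, 24.9 and 28.8 CPM at E17, at 14.6, 14.2, 14.4 and 13.9 at P1, at 4.58, 5.99, 5.69 and 5.76 at P5, at 1.79, 0.791, 1.18 and 1.75 at P14, at 1.97, 0.471, 2.37 and 3.12 at P24 and at 7.67, 2.47, 6.34 and 7.597 at P60. It fell from P1 to P5 (-1.37 ± 0.32 (SE), adjusted p = 0.0028) and from P5 to P24 (-1.45 ± 0.35 (SE), adjusted p = 0.0016), and its E17 over P14 fold of 19.7 was the largest of the 42 genes. Crispld1 fell from P1 to P5 (-1.12 ± 0.25 (SE), adjusted p = 0.0018) and was lower at P24 than at P1 (-1.61 ± 0.26 (SE), adjusted p = 5.6e-06). Fbln1 (fibulin-1) and Spon1 (F-spondin) were called in no contrast by the main edgeR test, while limma-voom called both higher at P24 than at P5. Fbln1 had 11.96, 7.403, 4.45 and 9.31 CPM at P14 and 29.7, 7.69, 20.02 and 24.6 at P60, where replicate 2 overlapped P14, and Spon1 had 12.8, 12.5, 12.2 and 13.4 CPM at E17, 2.096, 2.26, 2.33 and 2.35 at P14 and 4.75, 3.92, 7.65 and 10.4 at P60, with no overlap between these stages.

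The 4 transcription factor genes differed in where they were low. Atf3 (ENSMUSG00000026628, chromosome 1, 191170296 to 191218039, minus strand), a stress- and injury-induced factor, stood at 87.6, 99.1, 94.8 and 110 CPM at E17, at 23.2, 18.7, 21.6 and 18.9 at P1, at 12.3, 8.54, 11.4 and 10.7 at P5, at 11.7, 11.1, 14.1 and 13.6 at P14, at 28.9, 34.9, 32.6 and 27.5 at P24 and at 34.9, 23.1, 38.3 and 22.6 at P60. E17 was by far the highest stage, P5 and P14 were the lowest after birth, and P24 was already in the range of P60. Atf3 rose from P5 to P24 (1.53 ± 0.17 (SE), adjusted p = 6.1e-08), and from P1 to P5 its log2 fold change was -0.94 ± 0.17 (SE), adjusted p = 0.00024, just short of a fold of 2. It belongs to the list of immediate early genes, of which 26 were tested and summed to 659 to 818 CPM at E17, 577 to 655 at P14 and 801 to 815 at P60. In that list 7 genes rose from P5 to P24 (Atf3, Zfp36, Klf2, Junb, Socs3, Arc and Ier3) and Egr3 fell.

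Etv4, an ETS factor induced by growth factor signals, had 12.5, 15.2, 15.5 and 16.9 CPM at P1, 6.17, 5.5, 7.19 and 5.36 at P5, 3.94, 3.62, 1.797 and 2.51 at P14 and 11.2, 3.701, 6.96 and 7.41 at P60. It fell from P1 to P5 (-1.31 ± 0.25 (SE), adjusted p = 0.0004) and was lower at P24 than at P1 (-1.23 ± 0.25 (SE), adjusted p = 0.00017). Gli2, an effector of Hedgehog signalling, stood at 17.4, 15.5, 16.5 and 13.9 CPM at E17, at 4.12, 5.21, 8.93 and 7.01 at P1, at 4.83, 4.64, 5.35 and 3.93 at P5, at 5.42, 4.92, 3.68 and 4.82 at P14, at 5.91, 2.62, 6.62 and 9.59 at P24 and at 12.8, 7.04, 14.4 and 14.1 at P60. Replicate 2 was the lowest library at both P24 and P60, and Gli2 was called in no contrast. Foxd1, a forkhead factor, was called in none either, with 8.09 ± 0.919, 2.06 ± 0.442 and 5.09 ± 1.75 CPM (SD, n = 4) at E17, P14 and P60.

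Hif3a, an inhibitory member of the hypoxia-inducible factor family, Egln3, a prolyl hydroxylase that marks these factors for degradation, and Fkbp5, a co-chaperone induced by glucocorticoids, were 3 further members. Hif3a (ENSMUSG00000004328, chromosome 7, 17031507 to 17062427, minus strand) stood at 185, 187, 176 and 179 CPM at E17, at 17.6, 12.3, 15.2 and 13.8 at P1, at 4.25, 4.898, 6.08 and 4.22 at P5, at 15.6, 22.7, 19.5 and 11.6 at P14, at 9.38, 9.21, 6.27 and 13.7 at P24 and at 35.7, 24.9, 49.9 and 36.2 at P60. Its low was at P5, and P14 lay above P5 and overlapped P24. It fell from P1 to P5 (-1.60 ± 0.23 (SE), adjusted p = 1.1e-05), the largest fall of the 42 genes in this contrast, and its P24 against P5 value of 0.99 ± 0.23 (SE), adjusted p = 0.0011 was just short of a fold of 2. This rise was called by DESeq2 and with the replicate number as a block, but not by limma-voom. Leaving out P5 replicate 3 or any 1 of P24 replicates 1, 2 and 3 also gave the call. Fkbp5 (ENSMUSG00000024222, chromosome 17, 28399094 to 28517527, minus strand) stood at 69.8, 67.2, 66.9 and 72.3 CPM at E17, at 26.7, 26.2, 29.5 and 27.9 at P1, at 17.5, 14.3, 16.9 and 17.7 at P5, at 25.3, 36.2, 36.1 and 21.2 at P14, at 23.7, 8.47, 11.4 and 24.4 at P24 and at 81.4, 80.4, 109 and 78.05 at P60. P24 overlapped P14 and reached below the P5 libraries, and P60 was above all other stages. Fkbp5 was called in no contrast.

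Fkbp5 is on the list of 15 glucocorticoid response genes, whose sum had another course, 323 to 346 CPM at E17, 1270 to 1590 at P14 and 2920 to 3500 at P60. From P5 to P24, 9 of these 15 rose and none fell, while the log2 fold change of Fkbp5 was 0.03 ± 0.23 (SE), adjusted p = 0.93. Egln3 had 20.6, 15.7, 15.5 and 14.4 CPM at E17, 2.86, 2.204, 2.29 and 3.04 at P14 and 6.14, 5.15, 4.17 and 6.22 at P60, and was called in no contrast.

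S1pr3 (ENSMUSG00000067586, chromosome 13, 51408639 to 51422797, plus strand), a receptor for sphingosine-1-phosphate, stood at 552, 613, 602 and 659 CPM at E17, at 312, 327, 349 and 307 at P1, at 156, 139.8, 133 and 146 at P5, at 101, 83.6, 98.4 and 98.4 at P14, at 166, 209, 163 and 139 at P24 and at 233, 219, 225 and 199.7 at P60. Each stage from E17 to P14 was below the one before without overlap of libraries, and P24 and P60 were above P14. S1pr3 fell from P1 to P5 (-1.17 ± 0.15 (SE), adjusted p = 2.1e-06). Its P24 against P1 value was -0.94 ± 0.15 (SE), adjusted p = 7.3e-06, short of a fold of 2.

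Net1, a guanine nucleotide exchange factor, Fam83d, a spindle protein of dividing cells, and Pcdh19, a protocadherin on the X chromosome, were called in none of the 3 contrasts by the main edgeR test. Fam83d was called lower at P5 than at P1 by limma-voom, and with scaling by library size only both Fam83d and Net1 were. Pcdh19 was called higher at P24 than at P5 without P24 replicate 2. Net1 had 107, 93.5, 100.3 and 93.9 CPM at E17, 42.98, 41.1, 44.2 and 41.4 at P5, 54.8, 42.7, 44.6 and 36.1 at P14 and 102, 125, 102 and 98.6 at P60. Fam83d (ENSMUSG00000027654, chromosome 2, 158768093 to 158786637, plus strand) stood at 21.4, 25.7, 22.4 and 21.6 CPM at E17, at 11.8, 11.7, 13.3 and 14.8 at P1, at 6.21, 5.67, 8.73 and 5.88 at P5, at 4.14, 2.995, 2.86 and 3.65 at P14, at 6.94, 6.59, 7.71 and 7.53 at P24 and at 17.8, 18.7, 17.5 and 18.96 at P60. Its P14 libraries were below all others from E17 on, and P60 was below E17 and above P1. The 15 cell cycle genes of the list, none of which is a member, summed to 3200 to 3280 CPM at E17, 232 to 287 at P14 and 75.6 to 83.4 at P60, and 14 of them fell from P5 to P24. Pcdh19 had 9.36, 3.67, 4.08 and 8.28 CPM at P14 and 19.4, 5.297, 12.8 and 16.6 at P60, where replicate 2 was within the P14 range. It is the only member on the list of 35 adhesion and cadherin genes, of which 4 rose and 9 fell from P5 to P24.

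Among genes of the membrane and cytoskeleton, Synm (synemin, an intermediate filament protein) stood at 57.5, 90.5, 72.9 and 75.5 CPM at E17, at 31.2, 36.1, 40.8 and 33.3 at P1, at 13.6, 19.6, 22.7 and 28.97 at P5, at 14.5, 11.02, 12.9 and 12.4 at P14, at 14.03, 13.7, 17.6 and 17.9 at P24 and at 28.1, 30.98, 29.5 and 26.5 at P60 and was lower at P24 than at P1 (-1.16 ± 0.23 (SE), adjusted p = 0.00013). It shares 84 opposite-strand bases with Ttc23. Myof (myoferlin, a protein of membrane repair) stood at 49.3, 49.7, 54.8 and 59 CPM at E17, at 14.5, 16.3, 14.6 and 14.3 at P1, at 16.3, 16.5, 18.6 and 20.2 at P5, at 19.7, 13.5, 16.6 and 15.1 at P14, at 28.8, 19.6, 31.6 and 27.3 at P24 and at 45.98, 42.3, 39.05 and 39.3 at P60, so that P1, P5 and P14 overlapped and E17 and P60 were clear of all 3. Myzap, a junction-associated protein, had 8.04 ± 1.02, 2.05 ± 0.8003 and 10.2 ± 2.36 CPM (SD, n = 4) at E17, P14 and P60. Myof and Myzap were called in no contrast.

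The enzymes and transporters were Gstm6 (a glutathione transferase), Car13 (a carbonic anhydrase), Slc20a1 (a phosphate transporter) and Cyp1b1 (a cytochrome P450). Gstm6 rose from P5 to P24 (2.20 ± 0.27 (SE), adjusted p = 2.2e-07), from 1.21, 0.831, 2.05 and 1.98 to 5.83, 8.21, 7.11 and 6.51 CPM, and Car13 did so too (1.14 ± 0.17 (SE), adjusted p = 6.2e-06), from 6.21, 6.93, 6.25 and 7.86 to 11.8, 16.2, 17.1 and 14.8 CPM. Both were lowest at P5. Gstm6 belongs to a family of similar genes, so that its counts may depend on how shared reads were assigned. Slc20a1 stood at 53.7, 56.7, 44.5 and 52.6 CPM at E17, at 41.04, 32.9, 39.3 and 34.2 at P1, at 20.9, 22.1, 20.4 and 23.6 at P5, at 21.5, 23.6, 21.1 and 19.8 at P14, at 31.1, 34.5, 31.5 and 32.5 at P24 and at 44.3, 47.1, 42.8 and 43.1 at P60. P5 and P14 overlapped, and P24 and P60 each lay above them. Its log2 fold changes of -0.76 ± 0.10 (SE), adjusted p = 1.8e-06 from P1 to P5 and 0.57 ± 0.10 (SE), adjusted p = 2.7e-05 from P5 to P24 were short of a fold of 2. Cyp1b1 had 17.6 ± 4.56, 8.46 ± 2.96 and 24.3 ± 2.801 CPM at E17, P14 and P60, and an E17 library of 11.1 CPM lay within the P14 range of 5.84 to 12.6.

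Other lists held few or none of the 42 genes. Of 39 lists of cell type markers and pathways, 5 had a member. None of the 17 immature and non-myelinating Schwann cell markers was one, although their sum was also higher at E17 (4880 to 5240 CPM) and P60 (2120 to 2470) than at P14 (1580 to 1810). In that list 5 genes fell and none rose from P1 to P5, and 6 rose and 3 fell from P5 to P24.

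Many of the genes were low together in single libraries. P24 replicate 2, P60 replicate 2 and P14 replicate 3 had the highest summed CPM of the myelinating Schwann cell markers within their stages (142100, 96790 and 143300). In P24 replicate 2, 14 of the 42 genes were under 0.5 times the median of the other 3 libraries, against 8.6% of all genes. The numbers were 9 (6.53% of all genes) for P60 replicate 2 and 8 (4.89%) for P14 replicate 3. The choice of the genes used both of these libraries, but not P24 replicate 2. A low P14 library helps a gene to be chosen, so that the count there is in part built in. By this count the other stages did not show this, since the library highest in myelin markers had 1 such gene at E13 (replicate 2) and 0 at E17 (replicate 4), P1 (replicate 4) and P5 (replicate 3), and E13 replicate 4, with 9 genes (17.4%), was not the highest of its stage. Counted as the lowest library of its stage, P24 replicate 2 held 22 of the 42 genes (52.4%, all genes 25.1%). P1 replicate 2, at rank 2 of its stage for myelin markers, held 21 (50%, all genes 16.9%). Cma1, Fbln1, Lrrn1, Pcdh19 and Tmeff2 were under 0.5 times the median in P24 replicate 2, P60 replicate 2 and P14 replicate 3 alike. At P60, Fbln1 had 24.7 ± 4.83 CPM and Pcdh19 16.3 ± 3.33 without replicate 2 (SD, n = 3), against 20.5 ± 9.396 and 13.6 ± 6.13 with it (n = 4). The part of myelin content in these values was not tested. Without the 3 libraries the same choice gave 45 genes, of which 39 were among the 42.

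**Figure D4:**
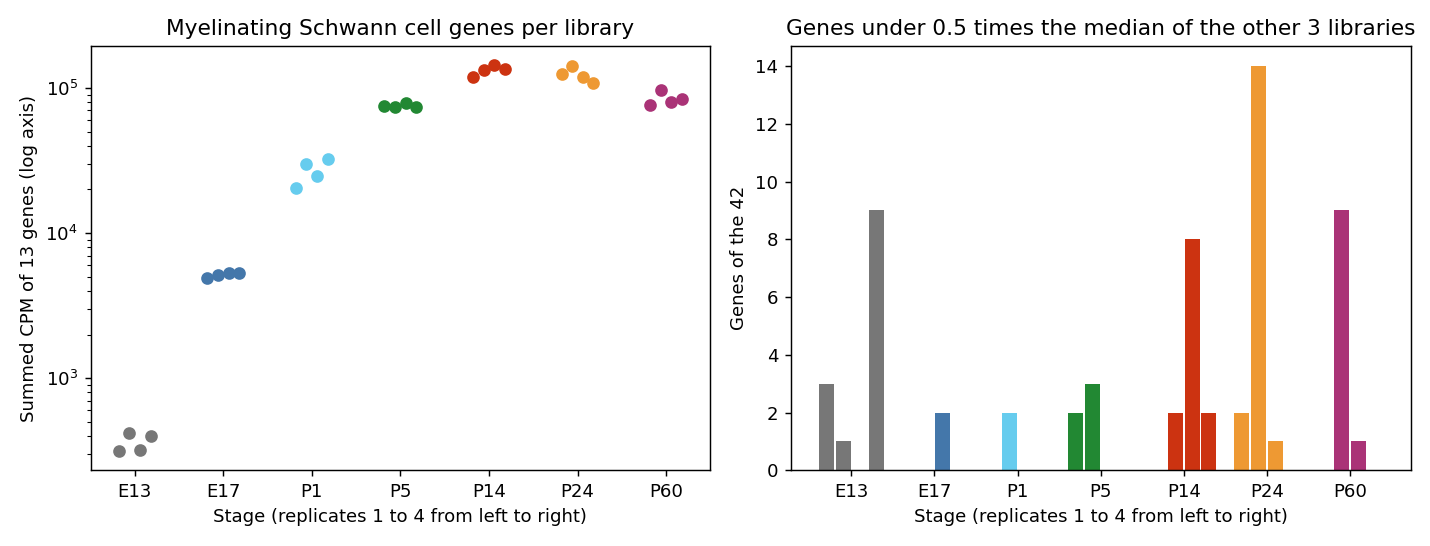
Left, summed TMM-scaled CPM of 13 myelinating Schwann cell markers in each library (log axis). Right, the number of the 42 genes whose level in a library was under 0.5 times the median of the other 3 libraries of its stage. P24 replicate 2 (14 genes), P60 replicate 2 (9) and P14 replicate 3 (8) have the highest myelin sum of their stage, and E13 replicate 4 also has 9.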

How the data were processed

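Bulk poly-A RNA of 28 nerve libraries was measured, and the members and lists described here were chosen with earlier results of these data known. The authors made stranded TruSeq mRNA libraries and aligned single-end reads with STAR 2.6.1c. They counted reads per gene with featureCounts and deposited raw counts without normalization. The submitters' processing notes name the build GRCm38.p5, while the methods of the study name a human build for the alignment. The gene identifiers are those of mouse. Whether strand was used in counting, and how reads with several alignments were treated, is not given in the sources used here. Symbols and coordinates (1-based) are from GENCODE M21 (GRCm38), which matched all but 86 of 41605 identifiers. Unmatched identifiers made up 0.16% of the tested genes. Promoter sequences are from RefSeq.

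Genes were kept by filterByExpr with the stages as groups (17700 genes) and scaled by TMM. All libraries entered 1 quasi-likelihood fit with the stage as its only term in edgeR 4.0.16 (R 4.3.3). P-values were adjusted by the Benjamini-Hochberg method over all tested genes, and a gene was called at an adjusted p under 0.05 with a fold change of at least 2. CPM values are TMM-scaled, and RPKM values divide them by exon length. Standard errors were derived from the F statistic (log2 fold change divided by the root of F). The script was tested on simulated data. No pair of libraries of a stage held the same counts (chi-square per degree of freedom of at least 4.35 over 42 pairs), and each was 1 replicate. Depth limits mainly genes with few counts, and counting error is only part of the spread.

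Genes were named by a rule on fold, level, calls and lists. The other members were named after their values were seen, to complete each group of roles, except 1 that enters the counts and is not reported here, and the role groups were themselves formed after the members were known. Alternatives were other scalings (DESeq2 1.42.0 size factors, library size only), filters, tests (DESeq2, limma-voom in limma 3.58.1), stages in the fit, a replicate block, no minimum on the fold, other limits of the choice and each replicate left out. An alternative without 3 libraries high in myelin genes was added after seeing the data.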

Additional observations from a re-analysis of the deposited data

Results flagged for a closer look

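Within groups of 4 libraries, a library was marked where its gap to the nearest other library, divided by the range of the group, exceeded Dixon's critical value. Of 294 combinations of gene and stage, 20 were marked, and chance marks about 5%. Values are in CPM.

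The mast cell genes account for 6 of them. Cpa3 was high in E17 replicate 4 at 27.6 (others 0.233 to 4.91), in P1 replicate 3 at 3.5 (0 to 0.401) and in P5 replicate 3 at 8 (0.542 to 1.73), and low in P60 replicate 2 at 4.35 (7.09 to 7.6). Cma1 was high in E17 replicate 4 at 28.8 (0.155 to 3.9) and in P1 replicate 3 at 2.01 (0 to 0.279). Ccr2 was low in P5 replicate 3 at 3.25 (4.7 to 4.78), the library in which Cpa3 was high, and in P14 replicate 2 at 3.9 (5.32 to 5.43).

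High libraries of other genes were Zcchc18 in P5 replicate 3 at 3.64 (2.21 to 2.35), Penk in P60 replicate 1 at 10.6 (4.41 to 5.15), Etv4 in E17 replicate 3 at 11.5 (9.55 to 9.77), Net1 in P60 replicate 2 at 125 (98.6 to 102) and Egln3 in P5 replicate 1 at 4.63 (3.04 to 3.29). Scn8a was high in P5 replicate 1 at 8.63 (7.32 to 7.51) and in P24 replicate 1 at 12.9 (12.4 in the others). Fkbp5 was high in P60 replicate 3 at 109 (78 to 81.4) and Myof in P1 replicate 2 at 16.3 (14.3 to 14.6). Low libraries were Nefl in E13 replicate 2 at 383 (675 to 732), S1pr3 in P14 replicate 2 at 83.6 (98.4 to 101) and Foxd1 in E17 replicate 4 at 6.72 (8.46 to 8.71). Without replicate 1 the P60 mean of Penk was 4.74 ± 0.375 (SD, n = 3), under the limit of 5 CPM.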

How the results depend on the processing

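Scaling by library size only gave 13 genes lower from P1 to P5 (3.44% of all genes) and 11 lower from P1 to P24 (18.9%), and 104 genes by the choice itself, 39 of them among the 42. It moved the median of all genes to -0.19, -0.11 and -0.3 on the log2 scale for P5 against P1, P24 against P5 and P24 against P1, where the 42 genes had medians of -0.88, 0.47 and -0.34. With no fold minimum 18 genes were lower from P1 to P5 (7.33% of all genes), 18 higher from P5 to P24 (21.4%), and 12 higher and 14 lower from P1 to P24 (29.1% and 27%). The choice gave 148 genes at a fold of 1.5, 6 at a fold of 3, 23 at a floor of 10 CPM, and 10 with P24 as the low stage, 8 of them among the 42. With each replicate left out it gave 35 (without P60 replicate 1) to 50 (without P14 replicate 1), and 17 of the 42 genes left it in at least 1 of 12 cases. Genes higher from P1 to P5 then numbered 0 to 1 (Cma1, without P1 replicate 3), and the other counts stayed within 1.5 times.

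None of the 31 calls, of 19 genes, reversed in sign, and 573 of 589 values of these calls under an alternative kept the call. The alternative with no fold minimum is counted here, and as it used the same fit it could not lose a call. The alternative without the 3 libraries high in myelin genes removed no P1 or P5 library. The calls lost were of Nefh, Ptprd, Ccr2 and Cacna1g. Genes not called were followed only through calls gained. With the fold minimum kept, those gained from P1 to P5 were of Nefl, Fam83d, Cytl1, Atf3, Net1 and Cma1. From P5 to P24 they were of Hif3a, Tmeff2, Spon1, Fbln1 and Pcdh19. From P1 to P24 they were of Ndnf, Spon1, Zcchc18, Prph, Cpa3, Cma1, Nefl, Fam83d, S1pr3, Foxd1 and Fkbp5. The deviations of same-numbered libraries had correlations of -0.17 to 0.29 over tested genes, positive for replicates 2 and 3 in every contrast but under 0 for replicate 4 in 2 of the 3, so the numbers were not taken as pairs. A replicate block gave 7 genes lower from P1 to P5 (without Nefh), 10 higher (with Hif3a added) and 3 lower from P5 to P24, and 6 higher (with Ndnf added) and 6 lower from P1 to P24. Counting limits low levels, as in P1 replicate 2, which held 23114114 counts and none of Cpa3 or Cma1.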
